A study of Mus musculus with 5 samples.

Results

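The comparison covered cells of subcutaneous MC38 tumors from mice given CPI and ABT-317 and from mice given isotype antibodies and ABT-317. MC38 is a mouse colon carcinoma line. CPI, immune checkpoint inhibition, was a pair of antibodies against CTLA4 and PD-1, and ABT-317 is an inhibitor selective for the kinase JAK1. All animals were male wild-type C57BL/6J mice of 8 to 10 weeks that received MC38 cells under the skin, then CPI or isotype antibody on days 3, 6 and 9, then ABT-317 at 20 mg/kg on day 12, and tumors were taken on day 15. Both groups therefore carried ABT-317, and the only labelled difference between them was the antibody. The study's methods also state that mice with MC38 tumors entered treatment at a set tumor volume, and the calendar above is the one given for the single-cell experiment. Tumors of 3 mice per group were sorted into CD45+ and CD45- cells, tagged with hashtag antibodies and mixed in equal parts, so shares of cells describe this mixture and not the tumor. Each of 2 reactions was loaded with 60000 cells of 4 treatments. No source used here says whether the 2 reactions held the same mice, so p-values measure the spread between reactions, which may be technical.

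A cell was assigned to a treatment when its leading hashtag, on the log scale and after subtracting the median of that tag over all barcodes of the reaction, exceeded the next of the 4 tags by at least 1. Of 65356 barcodes, 57094 had at least 200 genes and under 10% mitochondrial UMIs (unique molecular identifiers, counts of RNA molecules), and 15923 of these belonged to the comparison. CPI + ABT-317 held 3742 cells in reaction 1 and 3051 in reaction 2, and Isotype + ABT-317 held 5469 and 3661. The 2 groups without ABT-317 held 5904 cells (CPI) and 5438 cells (Isotype), and no treatment was assigned to 52.3% and 52.1% of the passing barcodes. The UMIs of each treatment in each reaction were added up, which gave 4 sums, and values below are CPM, the UMIs of a gene scaled to the usual common library total of the CPM unit, in the order reaction 1, reaction 2.

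Interferon-γ binds a receptor that signals through JAK1 and JAK2 to gamma-activated sites in the promoters of its target genes. Among these targets are the transcription factor IRF1, the T cell attracting chemokines CXCL9 and CXCL10, GTPases of the GBP and IRG families that attack intracellular membranes, the checkpoint ligand PD-L1 (Cd274) and SOCS1, which inhibits JAK kinases. Type I interferons use JAK1 with TYK2 and act mainly at interferon-stimulated response elements. In tumors the main source of interferon-γ is T cells and natural killer cells, which CPI is given to release from inhibition.

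The assignment rests on the hashtag oligos, printed here 5′ to 3′ because every group below is defined by them.
TSCam303, CPI + ABT-317 in reaction 1: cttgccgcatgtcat
TSCam307, CPI + ABT-317 in reaction 2: gagtctgccagtatc
TSCam309, Isotype + ABT-317 in reaction 1: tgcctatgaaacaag
TSCam308, Isotype + ABT-317 in reaction 2: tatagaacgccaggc
Any pair of them differed at 10 to 13 of 15 bases. The median UMI count of a cell's own tag was 616.5 and 543 in CPI + ABT-317 and 538 and 201 in Isotype + ABT-317. Another tag of the 4 at more than 1 log unit above its median over all barcodes, called a second tag below, was carried by 7.24% and 10.8% of CPI + ABT-317 cells and by 14.3% and 18.9% of Isotype + ABT-317 cells, so assigned cells with 2 tags were more frequent in the isotype group in both reactions. Since an assigned cell also had to lead by at least 1, only cells with a higher own tag could carry a second one. The median of the own tag over all barcodes was 86 and 61 UMIs against 62 and 11. These percentages therefore also depend on how high the own tags stood. No doublet caller was run, and the counts below were repeated without cells with a second tag in the classes that kept at least 25 cells in every sum. Of the compared cells, 85 had a barcode string that also occurred in the other reaction.

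The sums held 69636405 and 70478533 gene UMIs in CPI + ABT-317 and 101268494 and 94081296 in Isotype + ABT-317, and median genes per cell were 3971 and 4470 against 3862 and 4577. Leiden clustering of all passing barcodes gave 17 clusters, of which 8 could be named from fixed markers. The 2 largest among the compared cells stayed unnamed. Cluster 0 was led by Cox6a2, Hmga1, Cst6 and Psph and cluster 2 by H19, Cilp and Enpp2, and Ptprc (CD45) was at 1.31 and 3.17 CPM in them against 320 CPM in the main macrophage class. The 9 tumor epithelial markers (Epcam, Perp, Spint2, claudins and simple keratins) summed to only 2.75 to 3.74 CPM in cluster 0 and 1.24 to 2.15 CPM in cluster 2, so neither could be called tumor cells by these markers. The 8 fibroblast markers summed to 767 to 790 CPM in cluster 0 and 4647 to 5037 CPM in cluster 2, against 12793 to 25060 CPM in the fibroblast-like class. The 7 cycling markers summed to 1017 to 1162 CPM in cluster 0 and 639 to 716 CPM in cluster 2. The study scored an MC38 gene signature, which was not used here. Cluster 4 met no marker list and stayed unnamed. It was led by Alox5ap, Cd68 and C1qc at a median of 23407 UMIs, near that of cluster 0 (26177). The macrophage-like classes had medians of 3588 (Ccl3), 10363 (Mmp12) and 1880.5 (Ccl6). A second tag was found in 32.7% and 40.4% of the CPI + ABT-317 cells of cluster 4 and 44.6% and 54.3% of its Isotype + ABT-317 cells.

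Macrophages made up most of the named immune cells assigned to both groups, and the mix of named immune classes did not differ by a margin that passed the test. The macrophage-like class led by Ccl3 held 83.4% and 89.0% of the named immune cells with CPI + ABT-317 and 82.1% and 85.5% with Isotype + ABT-317, a log2 ratio of 0.04 (SE 0.09, edgeR quasi-likelihood test, adjusted p = 0.688). Neutrophil-like cells made up 3.81% and 2.08% against 1.77% and 1.36% (log2 ratio 0.89, adjusted p = 0.313), on 23 and 13 cells against 9 and 6. A second tag was carried by 8.70% and 15.4% of these cells against 44.4% and 50%. Their median UMI counts were 1416 and 649 against 28797 and 6887. At a hashtag lead of 2 the log2 ratio turned to -0.81. Few T-like cells were assigned to either group, 21 and 20 against 26 and 24, while all passing barcodes held 2135. The macrophage-like (Ccl3) class held 11288, of which 503 and 556 against 417 and 378 were compared. The part of tag assignment in these shares was not tested. The assigned T-like cells made up 3.48% and 3.20% against 5.12% and 5.43% of the named immune cells (log2 ratio -0.65, edgeR adjusted p = 0.151). That direction turned to 2.13 (adjusted p = 0.0325) when hashtags were assigned with a 2-component fit and to 0.44 (adjusted p = 0.562) without cells with a second tag, which 28.6% and 40.0% of the T-like cells carried with CPI + ABT-317 and 76.9% and 66.7% with Isotype + ABT-317.

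As a share of all cells the named immune classes together held 16.1% and 20.5% with CPI + ABT-317 and 9.29% and 12.1% with Isotype + ABT-317, and the groups did not overlap. The macrophage-like (Ccl3) class stood at 13.4% and 18.2% against 7.62% and 10.3% (log2 ratio 0.82, SE 0.31, edgeR quasi-likelihood test, p = 0.0492), which did not pass after adjustment over 17 classes (adjusted p = 0.279; the smallest p of an exact permutation test of 2 against 2 sums is 0.3333). Neutrophil-like cells held 0.615% and 0.426% against 0.165% and 0.164% of all cells (log2 ratio 1.65, edgeR adjusted p = 0.101), with the unlike second tags and UMI counts given above. Pericyte-like cells, on 2 and 3 against 11 and 9 cells, held 0.0534% and 0.0983% against 0.201% and 0.246% (log2 ratio -1.54, edgeR adjusted p = 0.16). Cluster 0 held 44.4% and 47.0% against 40.2% and 46.9%, and cluster 2 held 15.2% and 15.6% against 18.2% and 21.4%. Cluster 5 held 3.45% and 2.36% against 12.0% and 2.21%, so its size in Isotype + ABT-317 rested on reaction 1. Because CD45+ and CD45- cells were sorted and mixed by hand, these shares of all cells can also be set by the mixing and by how many cells of each sort received a tag. Of 3911 fibroblast-like passing barcodes, 42 and 40 against 77 and 50 were compared, and the pericyte-like class held 508 passing barcodes.

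**Figure D1:**
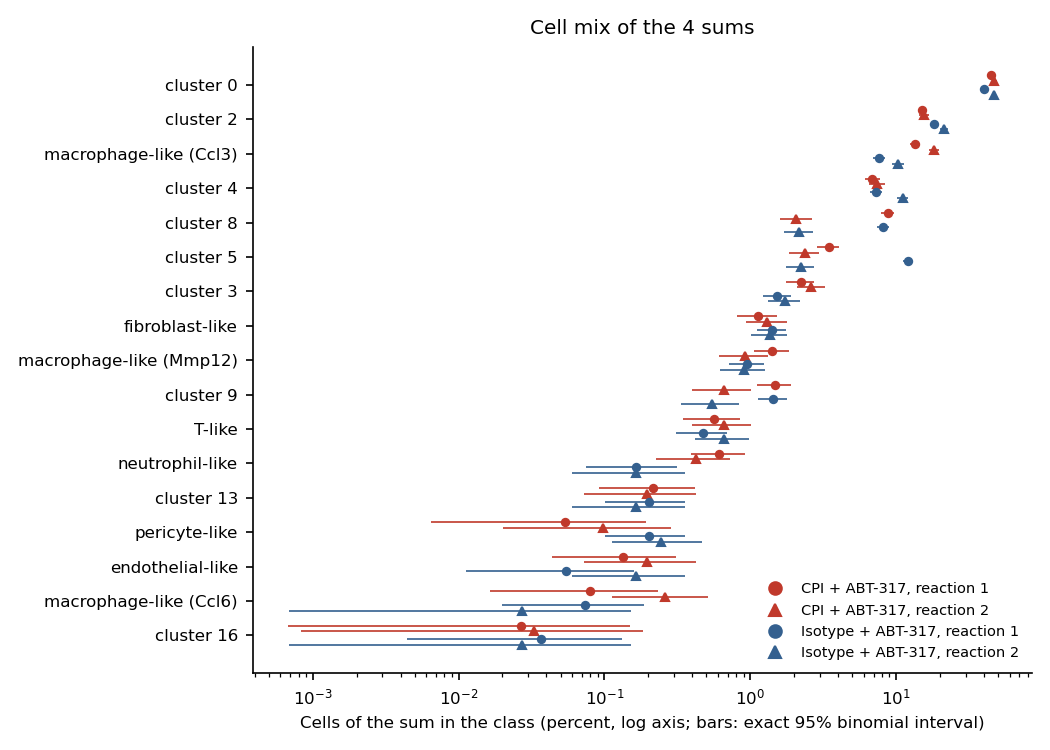
Share of the cells of each treatment and reaction held by each of the 17 classes (horizontal axis, percent of all cells of the sum on a log scale; 1 point per sum with its exact binomial 95% interval, which covers counting error only). The macrophage-like (Ccl3) points of CPI + ABT-317 at 13.4% and 18.2% lie to the right of those of Isotype + ABT-317 at 7.62% and 10.3%, and the cluster 5 point of Isotype + ABT-317 in reaction 1 lies at 12.0%.

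Among the classes, the macrophage-like (Ccl3) class had the most called genes in the fit of the 4 sums, 241 against 137 in cluster 0. Under other fits cluster 0 had more, 285 against 131 with DESeq2, 5006 against 872 with the reaction as a block and 348 to 460 against 204 to 276 without 1 sum. The class was compared as 503 and 556 cells against 417 and 378 cells. With CPI + ABT-317, 13 of 22 interferon-γ inducible genes, 5 of 8 MHC class II genes, Arg1, Mmp12 and Mmp13 were higher, and Folr2, Fcrls, Maf and Mrc1 were lower. Of 9475 genes tested, 241 passed an adjusted p of 0.05 (2.54%), 205 of them higher and 36 lower. With the reaction as a block, 555 were higher and 317 lower.

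Of the 24 genes on the interferon-γ inducible list, 22 could be tested here, and 13 were higher with CPI + ABT-317 while none was lower. Among all genes tested 2.16% were called higher and 0.38% lower. Both CPI + ABT-317 sums lay above both Isotype + ABT-317 sums for 18 of the 22, which held for 17.8% of all genes. The median log2 fold change of the 22 was 0.83, against -0.01 over all genes.

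Nos2 encodes inducible nitric oxide synthase and stood at 123 and 91.7 CPM with CPI + ABT-317 and at 20.9 and 14.4 CPM with Isotype + ABT-317. This was a log2 fold change of 2.64 (SE 0.21, adjusted p = 1e-06), and UMIs of it were found in 21.6% of the CPI + ABT-317 cells. Cxcl9, a ligand of CXCR3, a chemokine receptor of T cells, was at 627 and 568 CPM against 208 and 185 CPM (log2 fold change 1.64, SE 0.14). The groups were widely separated for both genes. Socs1 (61.1 and 82.0 against 19.7 and 16.5 CPM), Gbp4 (55.2 and 46.8 against 14.8 and 10.8 CPM) and Gbp2 (204 and 170 against 79.9 and 68.0 CPM) were higher as well, with log2 fold changes of 2.04, 2.04 and 1.38. The groups were nearer together for the transcription factor gene Irf1, at 225 and 223 against 112 and 99.9 CPM (1.12). Cd274 was at 360 and 276 against 217 and 175 CPM (0.73, SE 0.15, adjusted p = 0.00813).

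Cxcl10 was the exception on the list. It encodes a second CXCR3 ligand, and stood at 963 and 965 CPM with CPI + ABT-317 and 1162 and 1161 CPM with Isotype + ABT-317, a log2 fold change of -0.23 (SE 0.13, adjusted p = 0.544). Cxcl11, the third, was at 31.2 and 39.9 against 37.5 and 29.4 CPM, so its sums overlapped. Irf8, Wars1, Gbp3, Gbp7, Igtp, Irgm2 and Tgtp2 were also not called, with log2 fold changes of 0.19 to 0.96.

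Of the 20 genes that respond mainly to type I interferon, 18 did not pass. None was called higher and 2 were lower, Rsad2 (239 and 265 against 407 and 356 CPM, log2 fold change -0.56) and Ifit2 (55.2 and 68.3 against 137 and 108 CPM, -0.94), both of which encode antiviral proteins. Without overlap 3 of the 20 were higher and 10 lower, which held for 17.8% and 23.6% of all genes, and the median of the list was -0.07.

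Of the antigen presentation genes tested, 5 of 8 of class II and 3 of 13 of class I were called, all higher, against 2.16% of all genes. The difference between these lists was not tested. MHC class II molecules present peptides to CD4 T cells, and their list median was 0.77. Dendritic cell markers were also found in the class. The 7 cDC1 markers summed to 416 and 444 against 339 and 385 CPM, 4 of them higher without overlap. The 8 mregDC markers summed to 89.2 and 74.8 against 66.4 and 63.9 CPM, 2 of them higher without overlap, where 17.8% of all genes were. The 7 cDC2 markers summed to 111 and 104 against 105 and 107 CPM, so their sums overlapped. Of them 1 was higher and 1 lower without overlap, against 17.8% and 23.6% of all genes. The part of dendritic cell markers in the class II values was not tested. H2-Ab1, the beta chain of I-A, stood at 3224 and 3578 CPM against 1526 and 1931 CPM (log2 fold change 1.01, SE 0.15). The invariant chain Cd74 was at 9535 and 11420 against 5018 and 6588 CPM (0.89), and H2-Eb1 (0.82), H2-Aa (0.80) and the peptide editor subunit H2-DMb1 (0.75) followed. The transactivator Ciita itself was at 24.0 and 17.6 against 12.3 and 16.5 CPM and was not called (adjusted p = 0.505). The number of class II genes called fell to 1 without Isotype + ABT-317 reaction 1 and to 3 without CPI + ABT-317 reaction 2. Of 13 class I genes, the heavy chains H2-K1 (1970 and 2011 against 1330 and 1253 CPM, 0.66) and H2-D1 (0.58) and the peptide transporter subunit Tap1 (0.67) were called, and the list median was 0.41.

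Beyond these lists the highest log2 fold changes belonged to Slpi, Plac8, Upp1, Ifitm1, Mmp13 and Calhm6. Slpi, a protease inhibitor abundant in neutrophils, stood at 664 and 74.1 against 6.76 and 5.15 CPM, but 76.8% of its CPI + ABT-317 UMIs came from 1 cell. The neutrophil markers of this class summed to 28.1 and 27.3 against 26.4 and 17.5 CPM. Plac8, one of the 7 monocyte markers, was at 68.8 and 67.3 against 7.38 and 12.9 CPM (log2 fold change 2.74, SE 0.24), while the 7 markers summed to 700 and 598 against 814 and 749 CPM, 4 of them higher and 2 lower without overlap, against 17.8% and 23.6% of all genes. Ifitm1, a small interferon-induced membrane protein, was at 224 and 268 against 62.1 and 39.2 CPM (2.34, SE 0.18).

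Mmp12, Mmp13, Arg1 and Hmox1 were higher as well. Mmp12, macrophage elastase, stood at 448 and 314 CPM against 124 and 80.4 CPM (log2 fold change 1.94, SE 0.19), and the collagenase Mmp13 at 90.5 and 68.7 against 22.7 and 10.8 CPM (2.30, SE 0.25). Arg1, which encodes the arginine-degrading enzyme arginase 1, was at 819 and 654 against 236 and 281 CPM (1.54, SE 0.15). On the list of 14 myeloid suppression and repair genes, Arg1, Ptgs2 (358 and 326 against 218 and 195 CPM, 0.76), Vegfa (0.74) and Hmox1 (0.71) were higher, while Folr2 and Mrc1 were lower, and the list median was 0.04. Members called on this list therefore lay in both directions. The chemokines Cxcl3 (126 and 74.8 against 18.4 and 38.6 CPM, 1.79), Ccl8 (1.48) and Cxcl2 (0.57) and the costimulatory receptors Tnfrsf9 (1.57) and Cd40 (0.93) were also higher.

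Of the lower genes, Folr2, a folate receptor, stood at 9.05 and 12.2 CPM with CPI + ABT-317 and 35.0 and 33.5 CPM with Isotype + ABT-317 (log2 fold change -1.62, SE 0.25). Fcrls was at 77.8 and 106 against 239 and 258 CPM (-1.39, SE 0.16), the transcription factor Maf at 77.8 and 62.2 against 143 and 117 CPM (-0.86, SE 0.16) and the mannose receptor Mrc1 at 67.4 and 88.1 against 143 and 111 CPM (-0.65, SE 0.17). The groups did not overlap for any of them, and 23.6% of all genes were lower without overlap. Il12b, a subunit of the cytokines IL-12 and IL-23, also fell, from 72.5 and 65.9 to 33.0 and 25.9 CPM (-1.20, SE 0.18), and so did the membrane proteins Tmem176a (-1.51) and Tmem176b (-1.37).

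**Figure D2:**
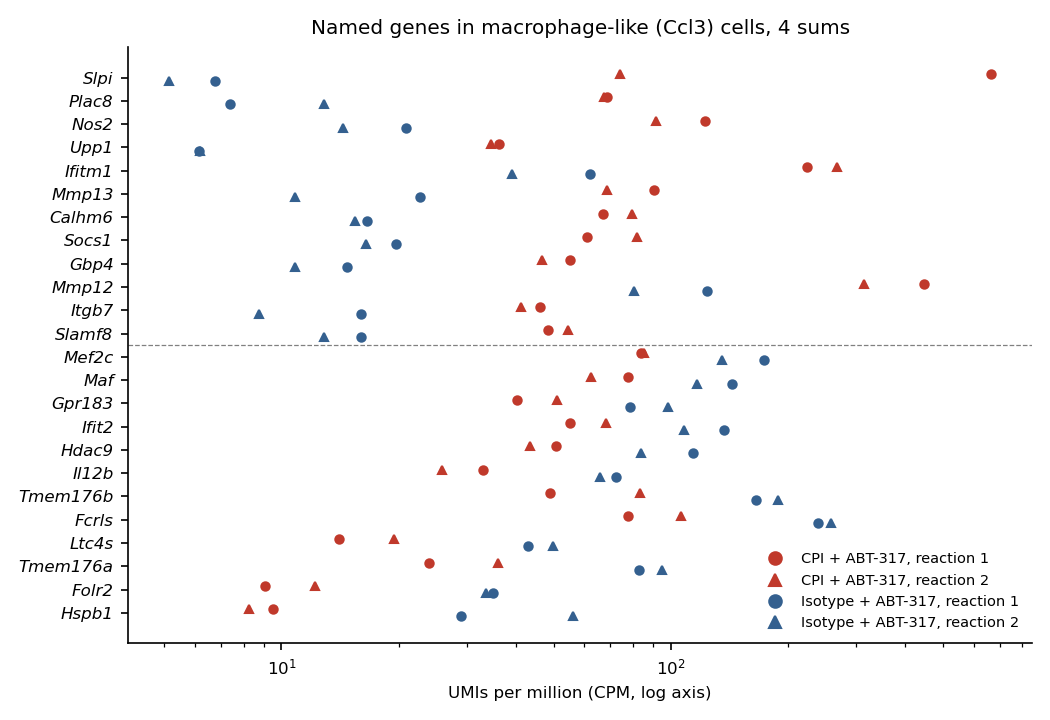
Level of the 12 highest and 12 lowest named genes in the macrophage-like (Ccl3) class (horizontal axis, CPM on a log scale; 1 point per sum; the dashed line parts higher from lower genes). The groups do not overlap for any of these genes, as with Nos2 at 123 and 91.7 against 20.9 and 14.4 CPM and Folr2 at 9.05 and 12.2 against 35.0 and 33.5 CPM. The genes were chosen by their test in these same sums, and 17.8% of all genes lay higher and 23.6% lower without overlap.

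Single sums decided part of these calls. Without CPI + ABT-317 reaction 1, 10 named genes lost their calls (adjusted p of 0.0539 to 0.315), among them Cd274, Rsad2, Mrc1, H2-D1 and Cxcl2. Without CPI + ABT-317 reaction 2, 10 did (0.0751 to 0.329), among them Cd74, H2-DMb1, H2-K1, H2-D1, Tap1, Hmox1 and Cxcl2. Without Isotype + ABT-317 reaction 1, 17 did (0.0621 to 0.563), among them H2-Aa, H2-Eb1, Cd74, H2-DMb1, H2-K1, H2-D1, Rsad2, Mrc1, Hmox1 and Cxcl2. Without Isotype + ABT-317 reaction 2, 13 did (0.0587 to 0.467), among them Cd274, H2-K1, H2-D1, Tap1, Vegfa and Cxcl2. Nos2, Cxcl9, Socs1, Gbp2, Irf1, Arg1 and Folr2 were called in each of these fits.

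The make-up of the class differed between the groups. At a finer clustering, cells led by Il1b, Tnfsf9, Cd14 and Cxcl2 made up 65.2% and 74.6% of the class with CPI + ABT-317 and 52.5% and 60.6% with Isotype + ABT-317, and cells led by Ighm, Negr1, Stmn1 and Maf made up 17.1% and 12.8% against 37.6% and 28.3%. A further kind, led by Hspb1, Mmp12, Hmox1, Mt2 and Mt1, made up 16.5% and 11.9% against 9.59% and 10.1%. Within the first kind alone 149 of 8553 genes passed, 109 higher (1.27%) and 40 lower, and 9 of 21 interferon-γ inducible genes were called with a median log2 fold change of 0.88. Within the second kind alone, 86 and 71 against 157 and 107 cells, 17 of 4888 genes passed, 14 of them higher (0.286%), and 1 of 12 tested list genes was called, with a median of 0.59. Cd274 there had a log2 fold change of -0.12. The macrophage markers of the whole class summed to 19743 and 24929 against 23452 and 27626 CPM, and the 7 cycling markers to 633 and 514 against 700 and 691 CPM. The part of this make-up in the differences of the class was not tested beyond these values.

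Cluster 0, the largest class (1663 and 1435 against 2196 and 1716 cells), also had higher levels of interferon-γ inducible genes, while no MHC class II gene was called. Of 14489 genes tested, 137 passed (0.946%), 110 higher and 27 lower, or 0.759% and 0.186% of all genes. Of the 23 list genes tested, 18 were higher and none was lower, and the median log2 fold change was 0.96 against -0.003 over all genes. With the reaction as a block the counts were 2338 higher and 2668 lower, and 20 of the 23, and without a filter on low counts 41 genes passed in all, and 10 of the list.

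Iigp1, an immunity-related GTPase, differed most among genes of at least 20 CPM. It stood at 42.7 and 38.8 CPM with CPI + ABT-317 and at 8.10 and 7.64 CPM with Isotype + ABT-317 (log2 fold change 2.31, SE 0.10, adjusted p = 0.00168). Igtp, of the same family, was at 40.5 and 44.9 against 16 and 18.2 CPM (1.26, SE 0.10), and Gbp2 at 113 and 116 against 47.2 and 49.2 CPM (1.19, SE 0.08). In all 3 genes the sums of a group were close to each other and far from those of the other group. Socs1 (67.1 and 71.6 against 33.8 and 36.3 CPM, 0.93), Irf1 (102 and 102.5 against 63.3 and 64.0 CPM, 0.63) and Cd274 (13.9 and 12.3 against 6.19 and 5.68 CPM, 1.09) were higher too. Unlike in macrophages, Cxcl10 passed here, at 182 and 200 against 120 and 122 CPM (0.61, SE 0.09, adjusted p = 0.0379). The difference between the classes was not tested. Cxcl9 stood at 7.03 and 5.24 against 3.18 and 1.45 CPM, on 296 and 240 against 181 and 83 UMIs, and did not pass although the groups were apart (log2 fold change 1.34, SE 0.33, adjusted p = 0.146).

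Outside the list, Il1rl1, the receptor of IL-33, stood at 154 and 134 against 56.4 and 55.4 CPM (log2 fold change 1.31, SE 0.10). The neutrophil chemokine Cxcl1 was at 230 and 283 against 101 and 100.1 CPM (1.29, SE 0.11), the kinase Sgk1 at 203 and 234 against 82.7 and 89.9 CPM (1.28, SE 0.10), and the immediate early gene Fosb at 99.8 and 92.6 against 48.6 and 43.1 CPM (1.01, SE 0.10). The groups were apart for all 4, and 30.8% of all genes were higher without overlap. The other immediate early and heat shock genes listed as signs of handling were not called in cluster 0, and the median of that list was 0.23. Calls of that list elsewhere included Fosb, higher in cluster 2, and Egr1, higher in the macrophage-like (Ccl3) class. Both calls were lost without either Isotype + ABT-317 sum, and that of Egr1 also without CPI + ABT-317 reaction 1. Of the 13 class I genes, Nlrc5, Tap1 and Psmb9 were called higher in cluster 0, against 0.759% of all genes, and the list median was 0.10. Of 6 class II genes tested there none passed.

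Cdkn2b, which encodes the cell cycle inhibitor p15, was the gene with the lowest log2 fold change among those named in cluster 0. It fell from 84.3 and 93.1 CPM to 36.8 and 41.6 CPM (log2 fold change -1.23, SE 0.10). The 13 cell cycle genes were not called, with a median of 0.04. S100a4 (932 and 827 against 1352 and 1274 CPM), the collagen gene Col5a1 (65.1 and 60.1 against 87.2 and 88.4 CPM), Ankrd37, Hcfc1r1, Rsrp1 and Pde7a were also lower. Both CPI + ABT-317 sums lay below both Isotype + ABT-317 sums for 7 of the 14 matrix genes, which held for 14.4% of all genes, and Col5a1 was the 1 that was called. Without 1 sum the count of genes rose to 348 (CPI + ABT-317 reaction 1), 353 (CPI + ABT-317 reaction 2), 460 (Isotype + ABT-317 reaction 1) and 369 (Isotype + ABT-317 reaction 2), and the calls of Pde7a and Col5a1 were lost without CPI + ABT-317 reaction 2 (adjusted p of 0.0611 to 0.105) and that of Psmb9 without Isotype + ABT-317 reaction 1 (adjusted p = 0.0502).

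Cluster 2 (567 and 475 against 995 and 783 cells) resembled cluster 0. Of 12664 genes tested 137 passed (1.08%), 115 higher and 22 lower, or 0.908% and 0.174%. Of 22 interferon-γ inducible genes tested 16 were higher, none lower, and the median log2 fold change was 0.91. With the reaction as a block 1204 genes were higher and 894 lower, and 19 of the 22. Without a filter on low counts no gene passed (1502 genes had an unadjusted p under 0.05).

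Cxcl9 passed here, at 75.5 and 75.7 CPM against 18.3 and 23.5 CPM (log2 fold change 1.86, SE 0.13, adjusted p = 0.00126), with 12.3% of its CPI + ABT-317 UMIs in 1 cell. Iigp1 stood at 205 and 174 against 52.5 and 69.3 CPM (1.64, SE 0.14), Gbp2 at 411 and 397 against 204 and 237 CPM (0.88, SE 0.10) and Cxcl10 at 550 and 570 against 330 and 398 CPM (0.62, SE 0.11). The 2 groups did not overlap for any of these, and 20.4% of all genes were higher without overlap. Ereg, the growth factor epiregulin, was at 34.4 and 41.2 against 9.07 and 10.0 CPM (1.99, SE 0.14), Fabp4, a fatty acid binding protein, at 269 and 347 against 102 and 89.3 CPM (1.69, SE 0.14), and Id1, a target of BMP signalling, at 80.3 and 68.3 against 29.2 and 29.0 CPM (1.36, SE 0.12). Lower were the histone genes H2bc4 (-1.09) and H1f2 (-1.05), Cdkn2b (44.7 and 55.8 against 79.3 and 94.4 CPM, -0.78), Txnip (-0.71) and the sterol synthesis genes Hmgcs1 (58.2 and 58.0 against 92.8 and 97.5 CPM, -0.71) and Msmo1 (-0.57). Of the type I interferon list Ifi27l2a was higher (0.84) and Mx2 lower (-0.78). On that list of 20, both CPI + ABT-317 sums lay above both Isotype + ABT-317 sums for 8 genes and below them for 6, against 20.4% and 19.9% of all genes, so members lay on either side. Without Isotype + ABT-317 reaction 2, 88 genes passed and 10 named calls were lost (adjusted p of 0.0525 to 0.222), among them Irf1, Cdkn2b, Txnip, Hmgcs1, Msmo1 and Mx2. Without Isotype + ABT-317 reaction 1, 8 were lost (0.0623 to 0.337), among them Irf1, Cxcl10 and Msmo1. Without CPI + ABT-317 reaction 1, 317 genes passed and Msmo1 did not (adjusted p = 0.0718), and without CPI + ABT-317 reaction 2, 254 passed and Irf1 did not (adjusted p = 0.114).

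Both clusters and the macrophages had genes in common. Cluster 0 and cluster 2 had 50 higher genes in common, 45.5% of those of cluster 0 and 43.5% of those of cluster 2, and 8 lower ones, among them Cdkn2b, Rsrp1 and Tgfb3. The macrophage-like (Ccl3) class had 23 higher genes in common with cluster 0 and 31 with cluster 2, which were 11.2% and 15.1% of its own. All 3 classes had 16 higher genes in common. On the interferon-γ inducible list were 9 of them, such as Cd274, Gbp2, Gbp4, Iigp1, Irf1 and Nos2, and the others included Plac8, the MAP kinase phosphatases Dusp2 and Dusp5, the fibronectin receptor subunit Itga5, Sertad1 and Sgms2. Iigp1 stood at 42.7 and 38.8 CPM in cluster 0, 205 and 174 CPM in cluster 2 and 97.3 and 67.6 CPM in macrophages with CPI + ABT-317. The classes came from the same libraries, and the part of free RNA in these shared genes was not tested.

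**Figure D3:**
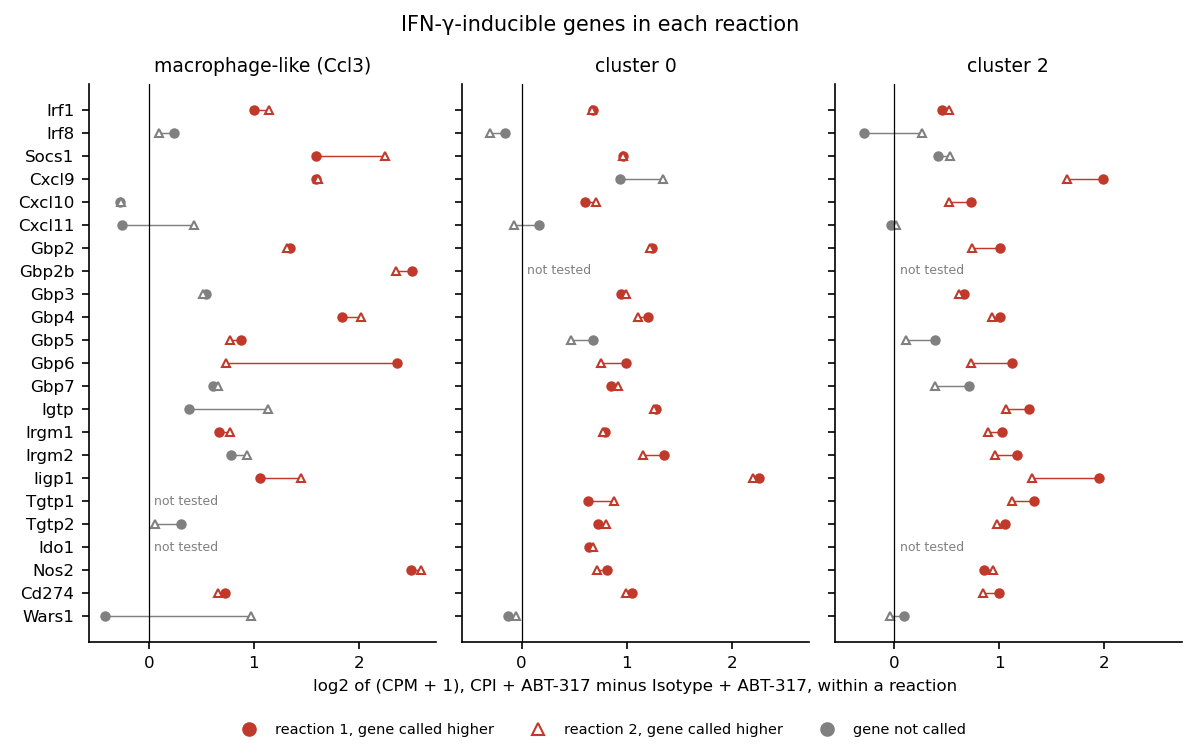
Difference of log2(CPM + 1) between CPI + ABT-317 and Isotype + ABT-317 within each reaction for 23 of the 24 interferon-γ inducible genes in 3 classes (circles, reaction 1; triangles, reaction 2; red, genes called higher in the fit of the 4 sums; gray, not called). Most pairs of points lie to the right of 0, Iigp1 in cluster 0 at 2.26 and 2.20, while Cxcl10 lies at -0.27 in both reactions in macrophages.

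The promoters of the interferon-γ inducible list were read because 13 to 18 of its members were called higher in 3 classes. Promoter sequences came from RefSeq on GRCm38.p6, 250 bases before to 50 after each start, and 16 of the 24 genes matched. Iigp1 and Nos2 were not among them. The gamma-activated site was searched as TTCNNNGAA, which is its own reverse complement, and an interferon-stimulated response element as GAAANNGAAA on either strand. The 16 genes had 19 promoters, of which 8 held the first and 12 the second, against 8.30% and 3.44% of all 32851 promoters. The list was made of known interferon-γ targets, so these shares describe the list and not the present data. By gene, 14 of the 16 held either and 6 both. Both motifs can share bases. In the promoters of Igtp, Irgm2, Tgtp1 and Tgtp2 the 2 motifs began 11 bases apart. All 4 genes lie on chromosome 11, and the 3 windows of them printed below share letters around the motifs, so they may not be separate instances. The windows of 3 of these genes and of Irf1, which had only the first motif, are given from 120 to 21 bases before the start, with the motifs in capitals.
Igtp, chr11:58199436-58199535, plus strand: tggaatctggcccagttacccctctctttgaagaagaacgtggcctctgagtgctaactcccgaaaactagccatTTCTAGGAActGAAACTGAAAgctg
Irgm2, chr11:58214857-58214956, plus strand: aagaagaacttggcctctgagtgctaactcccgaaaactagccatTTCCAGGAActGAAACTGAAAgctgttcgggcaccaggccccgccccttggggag
Tgtp1, chr11:48992267-48992366, minus strand: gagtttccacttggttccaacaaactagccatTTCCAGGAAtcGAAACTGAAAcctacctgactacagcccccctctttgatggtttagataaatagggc
Irf1, chr11:53769894-53769993, plus strand: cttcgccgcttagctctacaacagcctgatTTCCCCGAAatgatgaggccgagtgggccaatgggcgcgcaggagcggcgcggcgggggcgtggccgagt
In cluster 2, where all 4 were called in the fit of the 4 sums, Tgtp1 lost its call without either Isotype + ABT-317 sum (adjusted p of 0.0525 and 0.0623) and Irf1 in 3 of the 4 fits without 1 sum. There Igtp stood at 118 and 124 against 48.1 and 59.1 CPM, Irgm2 at 32.9 and 28.6 against 14.1 and 14.3 CPM, Tgtp1 at 2.56 and 2.10 against 0.42 and 0.43 CPM and Irf1 at 169 and 182 against 123 and 127 CPM. Cxcl9 and Cd274 had neither motif in their windows. A match describes letters in the window and shows no binding.

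The kinases and receptors of the pathway did not pass in these classes. Of the list of 19 genes of this pathway, 2 were called higher in cluster 0 (0.759% of all genes), 2 in macrophages (2.16%) and 1 in cluster 2 (0.908%), Socs1 among them in the first and second of these classes, and the list medians were 0.04, 0.08 and -0.03. Jak1, the target of ABT-317, was at 54.7 and 56.2 against 55.0 and 57.7 CPM in cluster 0, at 91.0 and 97.6 against 92.1 and 102 CPM in cluster 2 and at 107 and 87.8 against 92.8 and 87.6 CPM in macrophages. Jak2 was at 90.1 and 80.2 against 63.9 and 61.8 CPM in macrophages (log2 fold change 0.47, SE 0.16, adjusted p = 0.157). The groups were apart for Jak2 in macrophages, but the difference did not pass in the fit without a block.

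**Figure D4:**
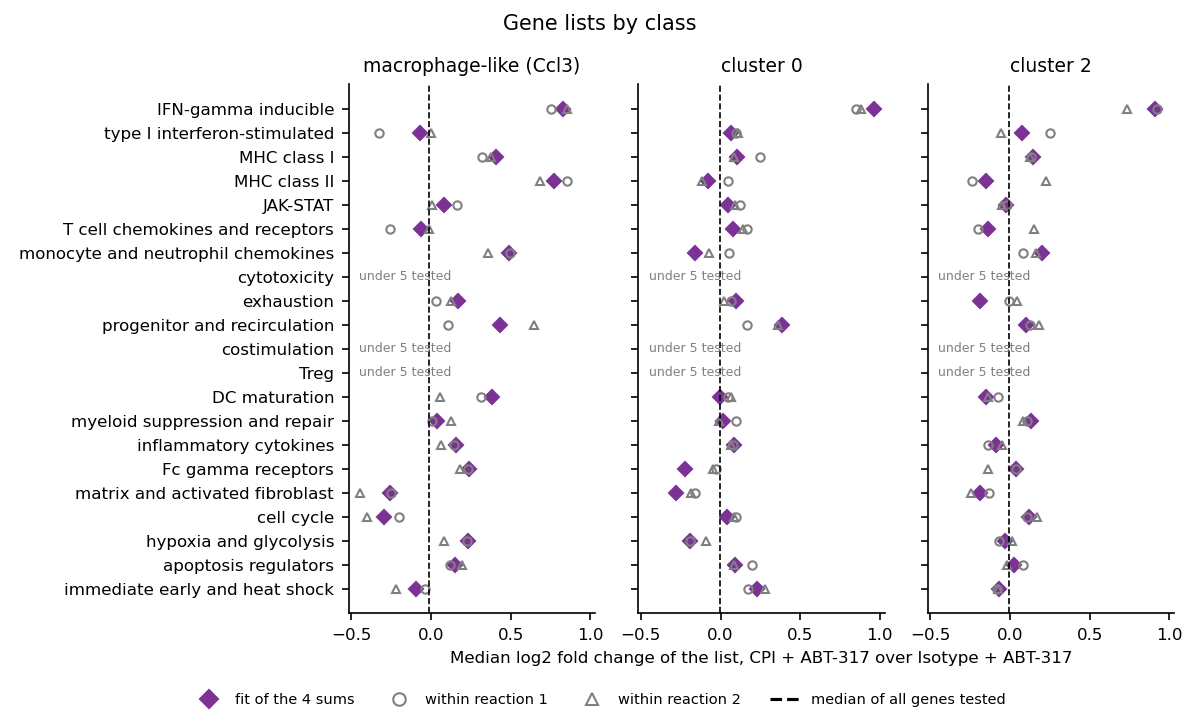
Median log2 fold change of the tested genes of each of 21 lists in 3 classes (diamonds, fit of the 4 sums; open circles and triangles, within reactions 1 and 2; dashed line, median over all genes; lists with under 5 tested genes carry no point). The interferon-γ inducible list lies at 0.83, 0.96 and 0.91 in macrophages, cluster 0 and cluster 2, and the MHC class II list at 0.77 in macrophages and at -0.08 and -0.15 in the clusters.

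Smaller and mixed classes gave fewer calls. In cluster 4, 13 genes were higher and 2 lower of 11909 (0.109% and 0.0168%), among them Ccl8 (41.0 and 26 against 8.29 and 9.33 CPM), Iigp1 (49.6 and 40.6 against 18.7 and 20.4 CPM), Igtp, Gbp2 and Irf1. The count was 49 without CPI + ABT-317 reaction 1, 108 without CPI + ABT-317 reaction 2, 57 without Isotype + ABT-317 reaction 1, where Igtp and Irf1 lost their calls (adjusted p of 0.0551 to 0.0892), and 44 without Isotype + ABT-317 reaction 2. It was 25 without cells with a second tag and 380 higher and 366 lower with the reaction as a block. In cluster 8, led by Bnc2, Zfpm2 and Ext1, 32 were higher and 1 lower of 10697 (0.299% and 0.00935%), with Iigp1 at 199 and 131 against 53.4 and 11.7 CPM. In cluster 8 no gene passed without Isotype + ABT-317 reaction 1 (the named genes then had an adjusted p of 0.0976 to 0.523), 11 did without Isotype + ABT-317 reaction 2, 56 without CPI + ABT-317 reaction 1 and 54 without CPI + ABT-317 reaction 2. With the reaction as a block 205 were higher and 67 lower.

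In the macrophage-like class led by Mmp12 (53 and 28 against 52 and 33 cells), 8 genes were higher and 1 lower of 6584 (0.122% and 0.0152%). None of the 16 interferon-γ inducible genes tested was called, at a median of 0.19. A second tag was carried by 26.4% and 46.4% of the cells against 44.2% and 48.5%. Fibroblast markers summed to 2255 and 2603 against 2274 and 2220 CPM, where the macrophage-like (Ccl3) class had 134 to 323 CPM. The part of mixed cells in the calls was not tested. Mmp12 was at 163 and 444 against 43.0 and 33.7 CPM, Slc7a11, a cystine transporter, at 185 and 131 against 59.8 and 57 CPM, and the monocyte chemokine Ccl12 fell from 477 and 699 to 318 and 210 CPM. Up to 66.7% of the UMIs of a called gene came from 1 cell, and DESeq2 called none (67 genes had an unadjusted p under 0.05). The Slc7a11 call was lost without either reaction 1 sum and the Ccl12 call without either reaction 2 sum, the lost calls of the class then having an adjusted p of 0.101 to 0.975, and with the block 48 were higher and 28 lower.

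In fibroblast-like cells (42 and 40 against 77 and 50 cells), 20 genes were higher and 2 lower of 7452 (0.268% and 0.0268%, together 0.295%). Named higher genes included the contractile protein genes Acta2, Tagln and Myl9, the complement gene C2 and the cytokine receptor gene Il1r1. C2 lost its call without CPI + ABT-317 reaction 1 or Isotype + ABT-317 reaction 2. Il1r1 lost its call without CPI + ABT-317 reaction 2 or either Isotype + ABT-317 sum. Of the 14 matrix genes 2 were called. Acta2, smooth muscle actin, stood at 315 and 141 against 37.8 and 93.3 CPM and Postn, a matrix protein gene, at 843 and 798 against 368 and 474 CPM. H19, a leading gene of cluster 2, was lower at 66.0 and 121 against 218 and 208 CPM. Fibroblast markers as a whole summed to 20479 and 25060 against 12793 and 15798 CPM, 7 of the 8 higher without overlap, which held for 15.7% of all genes. Acta2, Tagln and Myl9 were also leading genes of the pericyte-like class, and the 6 pericyte markers summed to 329 and 153 against 47.7 and 97.4 CPM, 1 of them higher without overlap. A second tag was carried by 21.4% and 47.5% of the cells against 53.2% and 70.0%. The part of these markers and tags in the calls was not tested. Without CPI + ABT-317 reaction 1, 36 genes passed, without CPI + ABT-317 reaction 2, 44, and without Isotype + ABT-317 reaction 1, 40, while Acta2 and Postn lost their calls without either reaction 1 sum and H19 without CPI + ABT-317 reaction 1 or Isotype + ABT-317 reaction 2 (lost calls at an adjusted p of 0.0754 to 0.85). With the block 75 were higher and 18 lower. DESeq2 called 7 genes and the fit of all 8 sums 8, and each left 6 of the 15 named calls.

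No gene passed in cluster 3 or cluster 5 by edgeR without a block. With the reaction as a block 3 were higher and 1 lower in cluster 3, and 21 higher and 11 lower in cluster 5. In cluster 3, 214 of 7200 genes had an unadjusted p under 0.05 and DESeq2 called none. In cluster 5, 250 of 10488 had an unadjusted p under 0.05 and DESeq2 called 1, and 155 genes passed without Isotype + ABT-317 reaction 2 and 51 without Isotype + ABT-317 reaction 1. The median UMI count of the cluster 5 cells of Isotype + ABT-317 was 5458 in reaction 1 and 32532 in reaction 2.

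When all cells of a treatment were summed, 22 genes were higher and none lower of 16552 (0.133% and 0%; 1739 genes had an unadjusted p under 0.05, and DESeq2 called 183 higher and 39 lower). In such sums, fewer cells of a type and less RNA per cell cannot be told apart. Cxcl9 stood at 45.8 and 42.9 against 15.3 and 14.0 CPM (log2 fold change 1.54), Iigp1 at 78.2 and 62.4 against 22.9 and 21.3 CPM (1.62), Arg1 at 36.0 and 35.5 against 10.4 and 13 CPM (1.55) and Ccl8 at 18.1 and 18.6 against 7.42 and 7.24 CPM (1.27). Of the 24 interferon-γ inducible genes 3 passed (Gbp2b, Iigp1 and Cxcl9), although 23 were higher without overlap, which held for 25.1% of all genes, and the median was 0.84. The macrophage-like (Ccl3) class, in which Arg1 and Cxcl9 stood at 819 and 627 CPM in reaction 1, also held a larger share of the CPI + ABT-317 cells (13.4% and 18.2% against 7.62% and 10.3%). The count of genes rose to 254 without CPI + ABT-317 reaction 1, 316 without CPI + ABT-317 reaction 2, 395 without Isotype + ABT-317 reaction 1 and 300 without Isotype + ABT-317 reaction 2, with 13 to 15 list genes called. It was 55 without cells with a second tag and 0 with a lead of 0.5, and with the reaction as a block 2909 were higher and 3314 lower.

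Over all cells the granzymes Gzmf and Gzmc stood higher with CPI + ABT-317, at levels below 20 CPM that rested on few T-like cells. Gzmf was at 2.67 and 3.99 against 0.07 and 0.07 CPM and Gzmc at 5.49 and 8.53 against 0.84 and 0.47 CPM, and T-like cells held 96.8% and 98.0% of the CPI + ABT-317 UMIs of these cytotoxic proteases. Within the T-like cells, Gzmc had 369 UMIs in 3 of 21 cells and 594 in 2 of 20 cells with CPI + ABT-317, of which 580 lay in 1 cell, and 74 and 37 UMIs in 1 cell each with Isotype + ABT-317. All 173 and 279 UMIs of Gzmf lay in 1 cell of each CPI + ABT-317 sum. With under 25 cells in 3 of the 4 sums, T-like cells were not tested. Ifng was found as 1 and 9 UMIs against 11 and 28 UMIs, or 4.82 and 60.5 CPM (exact 95% intervals 0.122 to 26.9 and 27.7 to 115, counting error only) against 28.2 and 76.8 CPM (14.1 to 50.5 and 51.1 to 111), so the levels overlapped. Of the 28 UMIs 23 lay in 1 cell, and of the 9 UMIs 4 did. The inhibitory receptor Pdcd1 had 1 and 2 UMIs against 5 and 20 UMIs, or 4.82 and 13.4 against 12.8 and 54.9 CPM (exact 95% intervals 0.122 to 26.9 and 1.63 to 48.5 against 4.16 to 29.9 and 33.5 to 84.8), so these levels overlapped too. The 26 genes of the interferon-γ score that the study lists for T cells summed to 1818 and 3890 against 1759 and 2695 CPM, its 17 exhaustion genes to 1278 and 1424 against 1379 and 1364 CPM and its 45 cell death genes to 2850 and 2735 against 2810 and 2679 CPM. The groups overlapped for all 3 lists. Macrophage markers in the T-like cells summed to 6003 and 9386 against 2546 and 3823 CPM. Median UMI counts of these cells were 7332 and 3628.5 against 13756 and 13111, where the whole T-like class had 1574. Cd3e was found in 4 of 21 and 7 of 20 against 10 of 26 and 13 of 24 of them. A second tag was carried by 28.6% and 40.0% against 76.9% and 66.7%. The part of mixed cells in the T-like values was not tested.

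The antibody panel gave a second readout of some of these genes. It held 113 antibodies against surface proteins and 9 isotype controls, and values are antibody CPM, scaled in the same way to the panel UMIs of each sum, compared as log2 ratios within a reaction. No test was run on the antibodies, and those named here were chosen after their values were seen. In the macrophage-like (Ccl3) class the isotype controls had log2 ratios of -0.06 to 0.06 and levels of 977 to 3724 antibody CPM. Above 0.25 in both reactions lay 4 of the 113 antibodies: CD11a (0.47 and 0.49), CD38 (0.43 and 0.42), Ly-6A/E (0.38 and 0.37) and CD274 (0.33 and 0.41). CD49f lay below -0.25 in both. CD38 (1790 and 1960 against 1329 and 1467 antibody CPM) and CD11a (2638 and 2860 against 1904 and 2030) lay within the levels of the isotype controls. So did CD274, which stood at 3139 and 3258 antibody CPM with CPI + ABT-317 and 2494 and 2444 antibody CPM with Isotype + ABT-317. Its gene had a log2 fold change of 0.73. The genes of the other 3 were higher too, Ly6a at 1294 and 1433 against 603 and 563 CPM (1.26), Cd38 (1.85) and Itgal (0.92). The antibody to I-A/I-E stood at 8780 and 9496 against 8098 and 9387 antibody CPM, log2 ratios of 0.12 and 0.02, while H2-Ab1 RNA had a log2 fold change of 1.01.

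In clusters 0 and 2 no antibody lay above 0.25 in both reactions, and CD71, the transferrin receptor, was the only one below -0.25. It stood at 10865 and 11418 against 17272 and 18623 antibody CPM in cluster 0 (log2 ratios -0.67 and -0.71) and at 5568 and 5806 against 8037 and 9032 antibody CPM in cluster 2 (-0.53 and -0.64). RNA of its gene Tfrc was at 37.5 and 35.9 against 39.1 and 37.1 CPM in cluster 0 (log2 fold change -0.11, adjusted p = 0.644), so the antibody and the RNA differed in size. CD274 had log2 ratios of 0.12 and 0.16 in cluster 0 and 0.19 and 0.16 in cluster 2. Its levels, 2389 to 2682 and 2461 to 2828 antibody CPM, lay within those of the isotype controls there (923 to 5826 and 968 to 3073). One isotype control had a ratio of 1.69 in reaction 2 of cluster 0. The CD45 antibody stood at 2118 to 2192 antibody CPM in cluster 0, where Ptprc RNA was near 0, and at 2544 to 2791 antibody CPM in the macrophage-like (Ccl3) class, so its range between a class without and a class with this RNA was narrow. The oligos of the 2 antibodies on which these values turn were read 5′ to 3′ as follows.
CD274 antibody oligo: tcgattccaccaact
CD71 antibody oligo: accgaccagtagaca

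**Figure D5:**
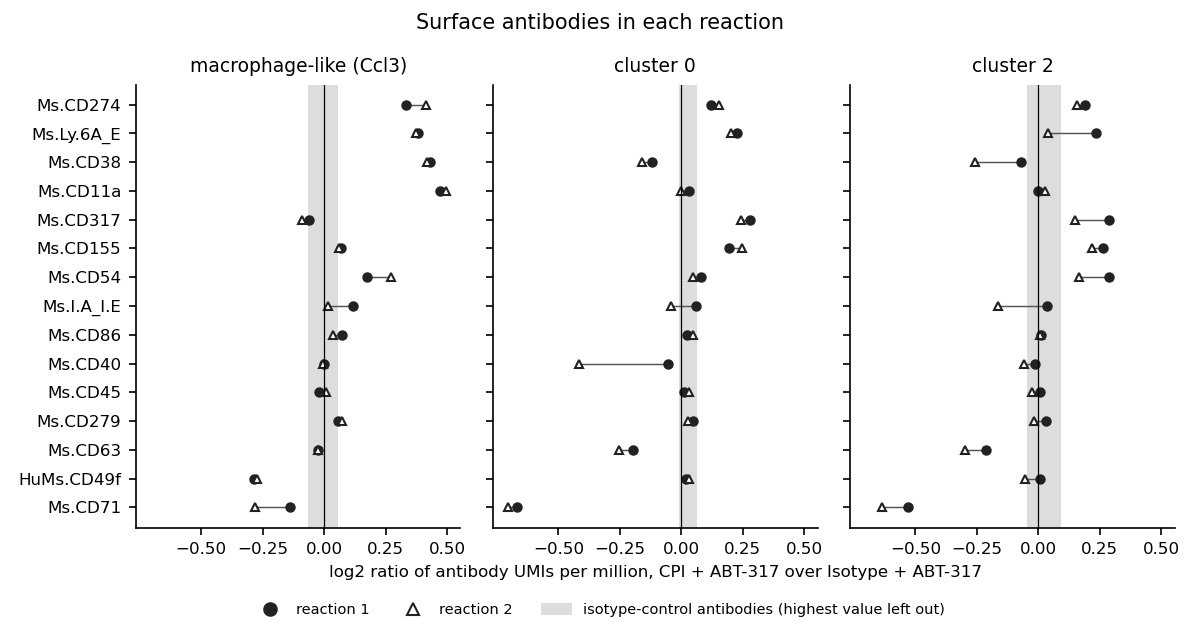
Log2 ratio of antibody CPM, CPI + ABT-317 over Isotype + ABT-317, for 15 antibodies in 3 classes (circles, reaction 1; triangles, reaction 2; gray band, range of the isotype controls without their highest value). CD274, Ly-6A/E, CD38 and CD11a lie at 0.33 to 0.49 in the macrophage-like (Ccl3) class and CD71 at -0.67 and -0.71 in cluster 0.

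The same antibody comparison was made without ABT-317, and the 2 differences were tested against each other in a fit of all 8 sums. These comparisons share no control samples. Cells with isotype alone had a median lead between tags of 1.26 and 1.22, and cells with CPI alone 1.92 and 1.97. The groups with ABT-317 had 1.88 to 2.53. Median UMIs per cell were 6297 and 13642 with isotype alone and 3037 and 3638 with CPI alone, against 16820 to 24768 with ABT-317. The part of lead and depth in the differences below was not tested. In the macrophage-like (Ccl3) class 7 of 10009 genes passed (0.0699%), 5 with a larger CPI difference under ABT-317 and 2 with a smaller one. Cxcl9 stood at 254 and 235 CPM with isotype alone and 327 and 323 CPM with CPI alone, and at 208 and 185 CPM with Isotype + ABT-317 and 627 and 568 CPM with CPI + ABT-317 (difference of the log2 fold changes 1.30, SE 0.17, adjusted p = 0.01). Mmp12 was at 102 and 138 CPM with isotype alone and 105 and 89.8 CPM with CPI alone, so only the groups with ABT-317 were apart (difference 2.31, SE 0.31). In cluster 0, 63 of 13901 genes passed (0.453%), 21 with a larger CPI difference under ABT-317 and 42 with a smaller one. Among the larger were Gbp2, at 73.6 and 92.4 CPM with isotype alone and 87.0 and 92.4 CPM with CPI alone (difference 1.14), and Iigp1, at 20.6 and 19.0 CPM and 45.1 and 38.6 CPM (difference 1.27). Among the smaller were Tfrc, at 21.5 and 24.1 CPM with isotype alone and 53.1 and 59.6 CPM with CPI alone (difference -1.36), and Ptgs2, at 29.4 and 36.4 CPM and 97.2 and 95.3 CPM (difference -0.95). Of the interferon-γ inducible list, 1 of 22 genes tested passed in macrophages, 2 of 23 in cluster 0, 0 of 22 in cluster 2 and 0 of 21 in cluster 4. Cells with CPI alone were few outside the immune classes. The fit was made only in classes with at least 25 cells in each of the 8 sums. With the reaction as a block 192 genes were larger and 70 smaller in macrophages and 572 and 484 in cluster 0.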

How the data were processed

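Single-cell 5′ RNA libraries of 2 reactions were analysed, each with the 4 treatments of the MC38 experiment told apart by hashtags. The authors deposited matrices of UMI counts for 33696 genes, 122 panel antibodies and 10 hashtags. The matrix header names Cell Ranger 8.0.1, while the submitters' processing notes name Cell Ranger 3.1.0 and GRCm38 (mm10), so the annotation behind the matrices is uncertain. The study's own upper limit of 2500 genes was not applied, since the compared cells had medians above it, and is among the alternatives.

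Counts were read as deposited (Python 3.11.15, scanpy 1.11.5). Cells were clustered on 3000 variable genes, 50 principal components and 15 neighbours (Leiden resolution 0.5), and a cluster was named where at least 3 markers of a type were 2 times higher with a mean log2 ratio of at least 1, unless more of its top 10 genes were markers of another type (cluster 13, dendritic cell markers) or its median UMI count was low with no marker of that type among them (cluster 9, macrophage markers); both clusters stayed unnamed and out of the named immune cells. No doublet caller was run; the lead between tags served in its place. Counts were summed per treatment and reaction and tested with edgeR 4.0.16 (TMM, quasi-likelihood, R 4.3.3) in classes with at least 25 cells in every sum, with Benjamini-Hochberg adjustment at 0.05. Standard errors were the log2 fold change divided by the root of F. Within-reaction differences used a pseudocount of 1 CPM. Alternatives were DESeq2 1.42.0, its size factors, no scaling, no low-count filter, leaving out each sum, other hashtag and cell filters and other resolutions. In all classes but the fibroblast-like one, sums of the same reaction deviated together (correlation of deviations 0.153 to 0.419, fibroblast-like 0.0651). The labels give the reaction, so the fit with the reaction as a block is printed beside the counts or in the last section. The step was tested on simulated counts of the 9522 genes of the macrophage-like (Ccl3) class. There it called 97% of genes changed 4-fold (log2 2) and 72.7% of those changed 2-fold (log2 1), with 7 false calls. In the Mmp12 class (6584 genes) it called 98% and 48.5%, with 8 false calls, where the data gave 9 calls in all. The simulated sums were drawn independently, so the simulation could not show how the step fares when sums of a reaction deviate together.

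Named genes passed the test, had a mean of at least 20 CPM and moved the same way in both reactions, the 12 highest and 12 lowest per class (predicted, mitochondrial, ribosomal and receptor segment genes left out), besides members of 21 gene lists. Genes outside this rule were named after their values were seen. One gene is not reported here, though counts and medians of lists include it. Members and lists were chosen with earlier results of these data known.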

Additional observations from a re-analysis of the deposited data

Results flagged for a closer look

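The difference between CPI and isotype under ABT-317 departed from the one without ABT-317 for 2154 of 17680 genes over all cells (12.2%; 437 larger, 1717 smaller), 63 genes in cluster 0 (0.453%), 12 in cluster 2 (0.0938%), 4 in cluster 4 (0.0333%) and 7 in the macrophage-like (Ccl3) class (0.0699%), by an interaction term in the fit of 8 sums (edgeR quasi-likelihood test, adjusted p under 0.05). With the reaction as a block 3285 genes were larger and 2848 smaller over all cells, so the balance of directions turned. In the macrophage-like (Ccl3) class the log2 differences between the 2 CPI differences were 1.3 for Cxcl9, 1.78 for Ifitm1, 2.72 for Mmp13, 2.31 for Mmp12 and 1.34 for Ly6a. Ly6a stood at 613 and 692 CPM with isotype alone, 605 and 690 CPM with CPI alone, 603 and 563 CPM with Isotype + ABT-317 and 1294 and 1433 CPM with CPI + ABT-317. In cluster 0 the values were 1.14 for Gbp2 and 1.27 for Iigp1. The sums of all cells with CPI alone held 19784652 and 14781863 gene UMIs at a median of 1444 and 1604 genes per cell, and the part of cell mix and depth in the all-cell count was not tested. Groups of 2 sums were not tested for outlying samples.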

How the results depend on the processing

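The fit with the reaction as a block called 6223 genes over all cells, 5006 in cluster 0, 2098 in cluster 2, 4 in cluster 3, 746 in cluster 4, 32 in cluster 5, 272 in cluster 8, 93 in fibroblast-like cells, 872 in the macrophage-like (Ccl3) class and 76 in the Mmp12 class, and for the interaction 6133 over all cells, 1056, 124 and 133 in clusters 0, 2 and 4 and 262 in macrophages; it called 23 interferon-γ inducible genes over all cells and changed no share call. DESeq2 called 222 over all cells (19 of the list), 285 in cluster 0, 1 in cluster 5, 8 in cluster 8, 7 in fibroblast-like cells, 131 in macrophages and 0 in the Mmp12 class (67 at an unadjusted p under 0.05). Without scaling the counts were 0 over all cells (0 of the list), 34 in cluster 4, 19 in cluster 8 and 14 in fibroblast-like cells. Without a low-count filter they were 119 (12 of the list), 41 in cluster 0 (10 of the list), 0 in cluster 2 (0 of the list), 135, 13 and 90 in clusters 4, 5 and 8, 81 in fibroblast-like cells and 17 in the Mmp12 class, and for the interaction 37, 69 and 61 in clusters 0, 2 and 4 and 89 in macrophages. With all 8 sums in the fit they were 66 (12 of the list), 303, 5 and 9 in clusters 0, 4 and 8, 8 in fibroblast-like cells and 1 in the Mmp12 class.

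A lead of 0.5 gave 0 over all cells (0 of the list), 8 in cluster 8, 102 in fibroblast-like cells and 4 in the Mmp12 class, and a lead of 2 gave 132 (20 of the list), 320 in cluster 0, 40 in cluster 4 and 17 in cluster 5. The 2-component hashtag fit gave 122 (11 of the list) and 12 in cluster 8. Under 2500 genes per cell the count over all cells was 0 (0 of the list), and under 5% mitochondrial UMIs it was 58 (9 of the list) and 2 in cluster 8. Without cells with a second tag, an alternative chosen after seeing the data, it was 55 (8 of the list) and 25 in cluster 4, and the interaction counts were 3295 over all cells, 152 in cluster 0 and 17 in cluster 4. Leiden resolution 0.3 gave 25 in cluster 4 and 0 in cluster 8, and resolution 1.0 gave 25, 5 and 5 in clusters 4 and 8 and the Mmp12 class. The 2 kinds of macrophage fitted alone, also chosen after seeing the data, gave 149 and 17 genes, and the second gave 1 of 12 interferon-γ inducible and 3 of 6 MHC class II genes where 0.286% of 4888 genes were higher, a list median of 0.59 and log2 fold changes of -0.12 for Cd274, -0.15 for Hk2 and -0.0541 for Egr1.

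The median of the interferon-γ inducible list over all cells was 0.90 without scaling, 0.76 and 1.07 at leads of 0.5 and 2, 0.94 with the 2-component fit, 0.97 under 2500 genes and 0.90 without second tags. In cluster 0 it was 1.02, 0.90, 1.15, 1.02 and 1.00 under the same alternatives other than the gene limit, and 0.80 and 1.09 at resolutions 0.3 and 1.0. In macrophages it was 0.92 without a filter, 0.95 at a lead of 2 and 1.03 with the 2-component fit, and the MHC class II median was 0.65 and 0.99 at leads of 0.5 and 2 and 1.00 with the 2-component fit. The log2 ratio of shares turned for the macrophage-like (Ccl3) class with the 2-component fit (-0.13), under 2500 genes (-0.0291) and without second tags (-0.0401), for the Mmp12 class with the 2-component fit (0.53) and over all cells (0.34), for T-like cells with the 2-component fit (2.13), under 2500 genes (0.11), without second tags (0.44) and over all cells (0.11), for fibroblast-like cells at a lead of 2 (-0.0400) and over all cells (-0.19), and at a lead of 2 for neutrophil-like (-0.81), pericyte-like (0.51) and endothelial-like cells (-0.41). At a lead of 2 the mean log2 ratio of antibodies turned to -0.00929 for CD11a in cluster 0, 0.0893 for I-A/I-E in cluster 2 and, in the Mmp12 class, -0.35 for CD38 and 0.0359 for CD45. The cause of these changes was not tested.

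Leaving out each sum in turn gave 254 to 395 genes over all cells, 348 to 460 in cluster 0, 88 to 317 in cluster 2, 0 to 2 in cluster 3, 44 to 108 in cluster 4, 0 to 155 in cluster 5, 0 to 56 in cluster 8, 32 to 44 in fibroblast-like cells, 204 to 276 in macrophages and 7 to 12 in the Mmp12 class. The list had 13 to 15 called genes and a median of 0.77 to 0.88 over all cells, 19 to 20 and 0.91 to 0.99 in cluster 0, 11 to 18 and 0.80 to 0.87 in cluster 2 and 11 to 13 and 0.82 to 0.91 in macrophages, and MHC class II had 1 to 5 and 0.59 to 0.97. The share ratios ranged over -0.0047 to 0.0881 (Ccl3), -0.99 to -0.03 (Mmp12), -0.0775 to 1.88 (Ccl6), -0.71 to -0.59 (T-like), 0.39 to 1.26 (neutrophil-like), -0.0161 to 0.12 (fibroblast-like), -1.61 to -1.04 (pericyte-like) and 0.28 to 1.71 (endothelial-like). Where an arm had 1 sum left, it was assumed to vary like the other group. Of 191 single-gene calls, 0 were lost with the block, 60 without a filter, 46 at a lead of 0.5, 45 with all 8 sums, 39 with DESeq2, 30 without scaling and 21 to 53 without 1 sum, and at resolution 0.3 43 were lost and 93 held, the others not being fitted. Alternatives that left under 25 cells in a sum could not be fitted: under 2500 genes for all classes but the macrophage-like (Ccl3) one, the 2-component fit for clusters 3, 4 and 5, fibroblast-like and Mmp12 cells, a lead of 2 for clusters 3 and 8, fibroblast-like and Mmp12 cells, no second tag for fibroblast-like and Mmp12 cells, resolution 0.3 for cluster 2 and Mmp12 cells, and 5% mitochondrial UMIs for Mmp12 cells.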
